A study of Mus musculus with 30 samples.

Results

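Ifitm1, Ifitm2, Ifitm3 and Ifitm10, 4 genes of the interferon-induced transmembrane (IFITM) family, were followed through bulk RNA sequencing of 2 mouse tumor cell lines. They were chosen by name and found by their Ensembl identifiers among the 49315 genes counted. Each of the 4 had at least 10 reads combined over the 24 libraries and was among the 21138 genes tested. The lines were 6694c2, a pancreatic ductal adenocarcinoma (PDAC) line from female mice carrying, among other alleles, Pdx-cre, floxed p53 on one allele and a floxed YFP reporter, and B16F10, a C57BL/6 melanoma line. Pdx-cre recombines floxed alleles in pancreatic cells. Cells of each line were cultured for 24 h with vehicle, with STING agonist at 225 μg/mL, with IFNβ at 1000 U/mL or with IFNγ at 100 ng/mL, with 3 libraries in each of the 8 groups. No treatment was combined with another, and each tumor type was represented by a single line. Nothing in the labels says that the 3 libraries of a group came from separate cultures, so p-values measure the spread between these libraries, which may be technical.

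IFITM proteins are short membrane proteins of the CD225 (dispanin) family. Ifitm3 sits mainly in endosomes and lysosomes, Ifitm1 mainly at the cell surface, and Ifitm2 is a close relative of Ifitm3. They hold back the entry of many enveloped viruses by making it harder for the viral and cellular membranes to fuse, and type I and type II interferons induce several of them in many cells. Ifitm10 belongs to the same family, lies apart from the cluster of the others, and its function is little known. IFNβ signals through Ifnar1 and Ifnar2 to a complex with Stat2 and Irf9 that binds the interferon-stimulated response element (ISRE), IFNγ through Ifngr1 and Ifngr2 to factors that bind the gamma-activated site (GAS), and STING agonists make cells produce type I interferon.

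All 4 genes lie on chromosome 7 of GRCm38, with the same gene start, end and strand as in GENCODE M21. Ifitm2 (ENSMUSG00000060591, chr7:140954837-140955987, minus strand) has 655 exonic bases, Ifitm1 (ENSMUSG00000025491, chr7:140967221-140969825, plus strand) has 1094, and Ifitm3 (ENSMUSG00000025492, chr7:141009586-141010770, minus strand) has 678. Ifitm10 (ENSMUSG00000045777, chr7:142325837-142373753, minus strand) has 4789 exonic bases and lies beyond the Krtap5 genes. The 200 bases around the RefSeq start sites are printed for the 3 clustered genes, on the strand of the gene. They run from 170 bases before the start to 30 from it (GRCm38.p6). The results turn on the contrast between Ifitm3 and its neighbour Ifitm2, while Ifitm1 had too few reads for such a contrast. Capitals mark matches to the ISRE-like letters GAAANNGAA.
Ifitm1 (chr7:140967906-140968105, plus strand): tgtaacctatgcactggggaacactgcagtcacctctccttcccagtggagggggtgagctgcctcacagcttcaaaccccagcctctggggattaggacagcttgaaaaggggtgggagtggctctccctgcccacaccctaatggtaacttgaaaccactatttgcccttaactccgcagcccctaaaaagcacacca
Ifitm2 (chr7:140955932-140956131, minus strand): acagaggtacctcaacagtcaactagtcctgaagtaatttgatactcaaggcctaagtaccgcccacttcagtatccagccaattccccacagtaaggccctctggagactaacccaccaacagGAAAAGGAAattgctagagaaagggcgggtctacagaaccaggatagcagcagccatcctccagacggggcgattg
Ifitm3 (chr7:141010715-141010914, minus strand): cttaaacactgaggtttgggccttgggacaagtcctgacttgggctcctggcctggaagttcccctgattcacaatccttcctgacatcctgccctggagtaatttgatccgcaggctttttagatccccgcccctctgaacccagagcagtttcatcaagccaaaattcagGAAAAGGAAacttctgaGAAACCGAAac

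The Ifitm3 window held 2 ISRE-like matches on the strand of the gene, beginning 2 and 19 bases after the start site, and 1 GAS match (TTCNNNGAA, read as TTCTGAGAA) beginning 13 bases after it and overlapping the second ISRE-like match. Ifitm2 held 1 ISRE-like match, GAAAAGGAA, 46 bases before its start, and no GAS match. No match to either motif was found in the RefSeq window of Ifitm1 or in any of the 3 RefSeq windows of Ifitm10. The Ifitm1 window lies inside the counted gene, which begins at chr7:140967221, so the bases before that position were not searched. Both strands were searched over the full 300 bases of each window. Of all 32851 RefSeq promoter windows of that length, 8.56% held an ISRE-like match, 0.624% held 2 or more and 8.3% held a GAS match. A match is a string of letters and not a measured binding site.

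Read counts differed by orders of magnitude between the members. Over the 24 libraries, Ifitm3 had 215507 reads, Ifitm2 66009, Ifitm10 283 and Ifitm1 44. Levels are given as CPM, the read count scaled to library size with TMM factors over the 24 libraries, and are divided by exonic length (CPM per kb) where genes are set against each other. In vehicle-treated B16F10 cells Ifitm3 stood at 302 ± 10.2 CPM per kb and Ifitm2 at 173.1 ± 11 (SD, n = 3), ranks 170 and 314 of the 21138 genes. In vehicle-treated 6694c2 cells Ifitm2 stood at 187.8 ± 17.4 CPM per kb and Ifitm3 at 6.40 ± 0.776 (SD, n = 3), ranks 305 and 6176. Ifitm2 was thus at a like level in both lines. By these counts Ifitm3 was the higher of the pair in B16F10 cells and the lower in 6694c2 cells. Exons of Gm45717 overlap 40.9% of the exonic bases of Ifitm2, and how reads there were counted is not given. Reads left out there would make Ifitm2 per kb too low, and the effect on the order in B16F10 cells was not tested.

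**Figure D1:**
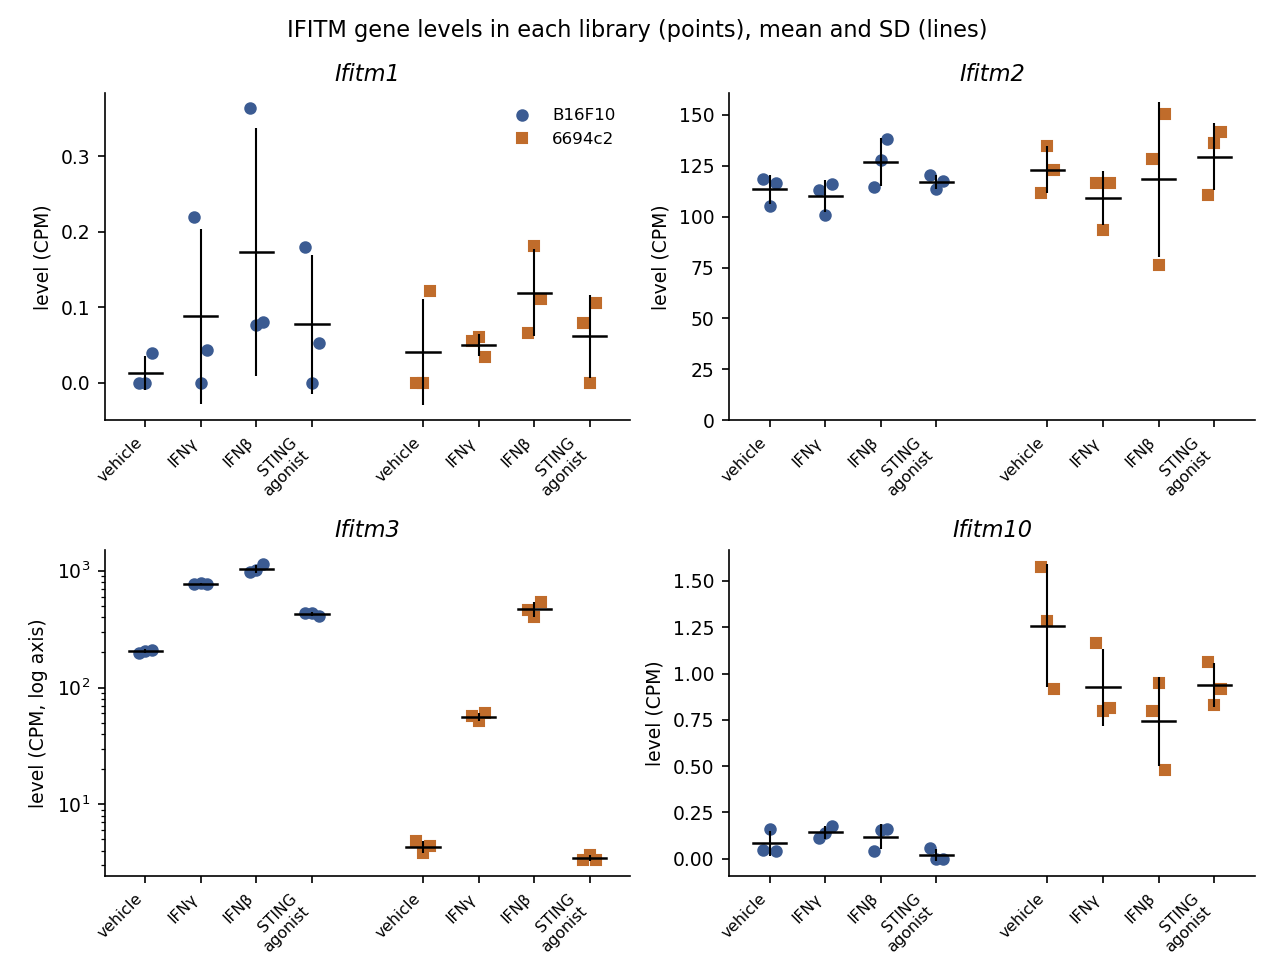
CPM of Ifitm1, Ifitm2, Ifitm3 (log axis) and Ifitm10 in each of the 24 libraries by treatment, with B16F10 as circles, 6694c2 as squares, a horizontal line at the group mean and a vertical line for the SD (n = 3). Ifitm3 spans 3.31 to 1134 CPM, Ifitm2 stays between 76.3 and 150.5 CPM, Ifitm10 separates the lines and Ifitm1 stays under 0.37 CPM.

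In B16F10 cells Ifitm3 rose with all 3 treatments, most with IFNβ. The vehicle libraries held 197.4, 205.7 and 211.1 CPM of Ifitm3, and the IFNβ libraries 972.4, 1024 and 1134 CPM. The IFNγ libraries held 765.8, 782.9 and 777.4 CPM and the STING agonist libraries 436.3, 437.1 and 411.2 CPM. The 4 groups did not overlap, and they rank vehicle, STING agonist, IFNγ, IFNβ from lowest to highest. The log2 fold change of Ifitm3 against vehicle was 2.36 with IFNβ (SE 0.0537, adjusted p = 5.17e-154, edgeR quasi-likelihood test, Benjamini-Hochberg). With IFNγ it was 1.92 (SE 0.053, adjusted p = 5.83e-127, same test) and with STING agonist 1.06 (SE 0.0523, adjusted p = 2.8e-60, same test), that is 5.12-, 3.78- and 2.08-fold in the order IFNβ, IFNγ, STING agonist. Ifitm3 moved from rank 170 by level per kb with vehicle to rank 61 with STING agonist, 29 with IFNγ and 11 with IFNβ. Of the 4 members, 2 were called higher with IFNβ (Ifitm3 and Ifitm2) against 12.7% of all genes tested, 1 with IFNγ against 12% and 1 with STING agonist against 1.93%. Counting either direction, 24%, 22.8% and 3.46% of all genes were called in those comparisons.

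In 6694c2 cells Ifitm3 began far below its B16F10 level and rose with both interferons but not with STING agonist. The vehicle libraries held 4.84, 3.8 and 4.39 CPM of Ifitm3, from 83, 68 and 72 reads. The IFNβ libraries held 462.1, 401.4 and 540.9 CPM and the IFNγ libraries 57.4, 51.8 and 60.3 CPM. All interferon libraries were above all vehicle libraries, and all IFNβ libraries above all IFNγ libraries. The log2 fold change of Ifitm3 was 6.79 with IFNβ (SE 0.113, adjusted p = 3.96e-38, edgeR quasi-likelihood test, Benjamini-Hochberg), or 110.5-fold, the change at rank 56 from the highest among all genes. With IFNγ it was 3.72 (SE 0.113, adjusted p = 2.19e-28, same test), or 13.2-fold. By level per kb, Ifitm3 moved from rank 6176 to rank 752 with IFNγ and to rank 82 with IFNβ. Ifitm3 was the single member called with each interferon in 6694c2 cells, where 10.4% of all genes were called higher with IFNβ and 7.89% with IFNγ, or 18.2% and 13.5% in either direction.

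With STING agonist the 6694c2 libraries held 3.31, 3.68 and 3.35 CPM of Ifitm3, each below the lowest vehicle library. The log2 fold change was -0.33 (95% interval -0.63 to -0.03, unadjusted p = 0.0339, adjusted p = 0.581, edgeR quasi-likelihood test, Benjamini-Hochberg). None of the 4 members was called by edgeR's quasi-likelihood test or by DESeq2 in this comparison, and Ifitm3 was the 1 member at an unadjusted p under 0.05. Over all genes 0.36% were called. The difference of the mean levels was -0.899 CPM.

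**Figure D2:**
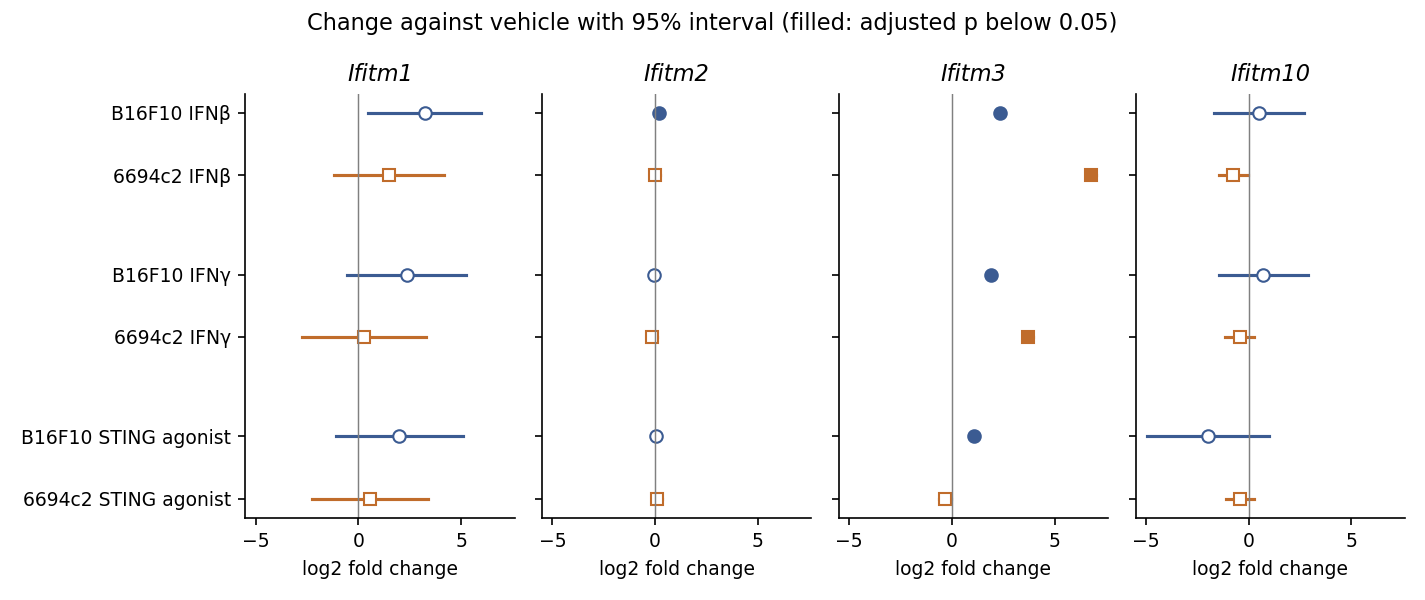
Log2 fold change against vehicle (x axis) of each member in the 6 comparisons, with the 95% interval as a line, circles for B16F10 and squares for 6694c2. Filled symbols passed an adjusted p of 0.05, as Ifitm3 did in 5 comparisons and Ifitm2 in 1, and the intervals of Ifitm1 and Ifitm10 are wide.

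IFNβ gave more Ifitm3 than IFNγ in both lines at the doses used, which are in different units and cannot be matched. The log2 difference was 0.44 in B16F10 cells (SE 0.0508, adjusted p = 6.83e-15, edgeR quasi-likelihood test, Benjamini-Hochberg) and 3.07 in 6694c2 cells (SE 0.0851, adjusted p = 1.45e-29, same test). Of the 4 members, 2 were called higher with IFNβ than with IFNγ in B16F10 cells (Ifitm2 and Ifitm3, background 6.65% higher and 14.5% in either direction) and 1 in 6694c2 cells (Ifitm3, background 7.3% and 13.9%). The difference between the lines in this contrast was 2.62 on the log2 scale (SE 0.105, adjusted p = 3.26e-22, same test). Of all genes, 8.45% were called in that comparison, which was added after the data were seen.

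The response of Ifitm3 differed between the lines with each agent, by the interaction test over all 24 libraries. The log2 fold change was larger in 6694c2 than in B16F10 cells by 4.40 with IFNβ (SE 0.131, adjusted p = 1.11e-26, edgeR quasi-likelihood test, Benjamini-Hochberg) and by 1.78 with IFNγ (SE 0.137, adjusted p = 5.11e-13, same test). With STING agonist it was smaller in 6694c2 cells, the difference being -1.40 (SE 0.167, adjusted p = 2.18e-07, same test). Ifitm3 was the only one of the 4 members called in each of these comparisons, against 12.1%, 9.47% and 2.12% of all genes for IFNβ, IFNγ and STING agonist. On the linear scale the order of the lines was the other way round for the interferons, since the increase of the mean level with IFNβ was 839 CPM in B16F10 and 464 CPM in 6694c2 cells, and with IFNγ 571 and 52.1 CPM. With STING agonist the order was the same on both scales (223 CPM in B16F10 and -0.899 CPM in 6694c2 cells). The fold changes thus start from unequal levels. With vehicle, Ifitm3 was lower in 6694c2 than in B16F10 cells, at a log2 difference of -5.56 (SE 0.106, adjusted p = 2.64e-35, same test), and 2 of the 4 members were called in this comparison between the 2 lines (Ifitm3 lower and Ifitm10 higher), where 58% of all genes were called.

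Ordered by mean level, Ifitm3 stood at 3.44 ± 0.202 CPM in 6694c2 cells with STING agonist, 4.34 ± 0.526 with vehicle and 56.5 ± 4.33 with IFNγ (SD, n = 3). Next came B16F10 cells with vehicle at 204.8 ± 6.93 CPM and with STING agonist at 428.2 ± 14.7, then 6694c2 cells with IFNβ at 468.1 ± 70 (SD, n = 3). B16F10 cells with IFNγ at 775.4 ± 8.76 CPM and with IFNβ at 1043 ± 82.3 were highest (SD, n = 3). Among neighbours in this order, only B16F10 with STING agonist and 6694c2 with IFNβ had overlapping libraries. The highest group mean was 303 times the lowest. In bulk RNA a higher share of responding cells and more transcript per cell cannot be told apart.

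Ifitm2, the close relative of Ifitm3, stayed within a narrow band. Its group means ran from 108.9 ± 13.2 CPM in 6694c2 cells with IFNγ to 129.4 ± 16.5 CPM in 6694c2 cells with STING agonist (SD, n = 3), a ratio of 1.19, and every pair of neighbours in the order overlapped. It ranked between 259 and 348 by level per kb in all 8 groups. In B16F10 cells the vehicle libraries held 118.4, 105.1 and 116.5 CPM of Ifitm2 and the IFNβ libraries 114.3, 128 and 138.1 CPM, which overlap. The log2 fold change with IFNβ was 0.17 (SE 0.0589, adjusted p = 0.0204, edgeR quasi-likelihood test, Benjamini-Hochberg), and against IFNγ it was 0.21 (SE 0.059, adjusted p = 0.00355, same test). The call against vehicle was lost with DESeq2 (adjusted p = 0.0742), the tool the study names, with all 24 libraries in the fit (0.418, edgeR), and without vehicle replicate 2 (0.22, edgeR), IFNβ replicate 2 (0.0747, edgeR) or IFNβ replicate 3 (0.189, edgeR). Over its alternatives this adjusted p ranged from 0.000682 to 0.418. The call against IFNγ was lost with all 24 libraries in the fit (adjusted p = 0.359, edgeR) and without IFNγ replicate 2 (0.0887, edgeR) or IFNβ replicate 3 (0.0635, edgeR), within a range of 7.61e-05 to 0.359.

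In 6694c2 cells Ifitm2 did not pass the test with any treatment. Its log2 fold change was -0.02 with IFNβ (95% interval -0.27 to 0.23), -0.16 with IFNγ (-0.41 to 0.09) and 0.08 with STING agonist (-0.17 to 0.32). The IFNβ libraries held 128.2, 76.3 and 150.5 CPM of Ifitm2, so replicate 2 stood well below the other pair. The median of 404 genes with a mean of 1 CPM or more and 503 to 999 exonic bases was also low in that library, at a log2 difference of -0.189 from the mean of the other 2, while the median of all such genes of any length was 0.01. The same measure was -0.865 for Ifitm2 and -0.317 for Ifitm3, and the part of transcript length in this was not tested. Without that library, Ifitm2 was higher with IFNβ than with IFNγ by 0.36 (adjusted p = 0.00374, edgeR quasi-likelihood test, Benjamini-Hochberg), against 0.14 with it (adjusted p = 0.568). Its response did not pass the test of a difference between the lines with IFNβ (log2 difference -0.21, 95% interval -0.57 to 0.14), IFNγ (-0.13, -0.49 to 0.23) or STING agonist (0.03, -0.33 to 0.38).

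In 6694c2 cells Ifitm3 exceeded Ifitm2 per kb with IFNβ and stayed below it with vehicle, IFNγ and STING agonist. Per kb, Ifitm3 made up 4.02, 2.65 and 3.34% of the summed level of Ifitm1, Ifitm2 and Ifitm3 with vehicle in these cells and 2.81, 2.55 and 2.23% with STING agonist. It made up 32.2, 34.8 and 33.3% with IFNγ and 77.7, 83.6 and 77.6% with IFNβ. In B16F10 cells the share was already 63.6% ± 1.86 with vehicle and reached 77.9% ± 0.846 with STING agonist, 87.2% ± 0.892 with IFNγ and 88.8% ± 0.297 with IFNβ (SD, n = 3). Each interferon group and the B16F10 STING agonist group lay apart from its vehicle group (two-sided exact permutation p = 0.1 each, the smallest that 3 against 3 libraries can give). The 6694c2 STING agonist group overlapped vehicle (exact permutation p = 0.2). The summed level rose from 475.1 ± 13 to 1733 ± 139 CPM per kb with IFNβ in B16F10 cells and from 194.3 ± 16.6 to 871.2 ± 160 in 6694c2 cells (SD, n = 3). Overlapping annotation and shared sequence limit how finely the reads can be divided. Of the 50-base stretches of Ifitm2, 48.5% occur in other annotated genes, mostly Gm45717, whose exons overlap 40.9% of the exonic bases of Ifitm2, and predicted genes with 0 to 8 reads each. Stretches shared with Ifitm3 make up 3.3% of Ifitm2, and 10% of the stretches of Ifitm3 occur elsewhere. Ifitm2 levels are thus the less certain of the pair. Reads of Ifitm2 left out in the overlap would also make the share of Ifitm3 too high, which was not tested.

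**Figure D3:**
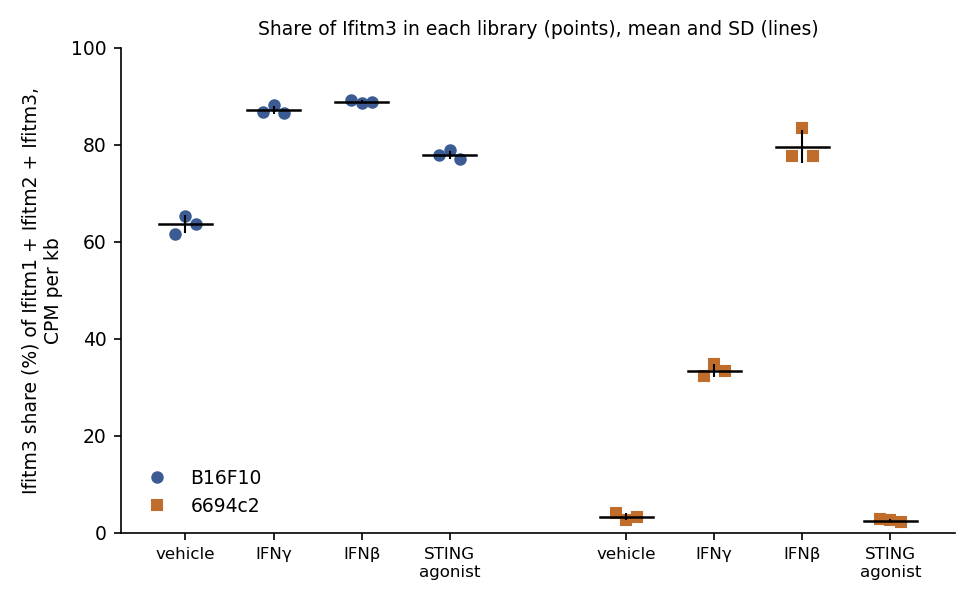
Ifitm3 as a percentage of the summed CPM per kb of Ifitm1, Ifitm2 and Ifitm3 in each library, with B16F10 as circles, 6694c2 as squares, the group mean as a horizontal line and the SD as a vertical line (n = 3). The share lies between 61.7 and 65.4% in B16F10 vehicle libraries and between 2.65 and 4.02% in 6694c2 vehicle libraries, and exceeds 77% with IFNβ in both lines.

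Ifitm10 was low in both lines and higher in the PDAC line. In 6694c2 cells it held 1.58, 1.28 and 0.914 CPM with vehicle, 1.17, 0.797 and 0.816 with IFNγ, 0.799, 0.95 and 0.479 with IFNβ, and 1.06, 0.829 and 0.915 with STING agonist. In the 12 B16F10 libraries it had between 0 and 4 reads, up to 0.176 CPM, and 2 STING agonist libraries had none. Every 6694c2 library was above every B16F10 library. With vehicle the log2 difference was 3.83 (SE 0.549, adjusted p = 7.99e-08, edgeR quasi-likelihood test, Benjamini-Hochberg), from 65 reads in 6694c2 and 6 in B16F10 cells. Of all genes, 58% were called between the lines in that comparison. No treatment passed the test in either line. The comparison nearest to the threshold was IFNβ in 6694c2 cells (log2 fold change -0.74, 95% interval -1.46 to -0.02, adjusted p = 0.168, edgeR quasi-likelihood test, Benjamini-Hochberg).

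Ifitm1 was close to undetected. It had 25 reads in all B16F10 libraries and 19 in all 6694c2 libraries, with 0 reads in 7 of the 24. In B16F10 cells it had 0, 0 and 1 reads with vehicle and 9, 2 and 2 with IFNβ, a depth-scaled ratio of 12.3 (exact 95% interval 1.84 to 522, for counting error only). In 6694c2 cells it had 0, 0 and 2 reads with vehicle and 2, 4 and 3 with IFNβ, a ratio of 2.92 (0.605 to 27.8). No comparison of Ifitm1 passed the adjusted test, and the smallest value was that of IFNβ in B16F10 cells (unadjusted p = 0.0211, adjusted p = 0.0794, edgeR quasi-likelihood test, Benjamini-Hochberg). A count of 3 reads corresponds to 0.184 CPM in the shallowest library and 0.0998 CPM in the deepest, so changes under those levels could not be seen at this depth. Ifitm1 has 1.42% of its 50-base stretches in common with Ifitm3, and Ifitm1 reads amounted to 0.204 per 1000 Ifitm3 reads.

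The median log2 fold change over the 4 members was 1.42, 1.32 and 0.55 with IFNβ, IFNγ and STING agonist in B16F10 cells and 0.73, 0.06 and -0.13 in 6694c2 cells, against medians of 0 to 0.02 over all genes. These medians include Ifitm1 and Ifitm10, whose values rest on few reads. The remaining genes named Ifitm were at or near 0. Ifitm5, known from bone-forming cells, had 32 reads in all, Ifitm6 had 8, of which 7 came from B16F10 cells with IFNγ, and Ifitm7 had none. Of 10 other CD225 family genes (Ifitm5, Ifitm6, Ifitm7, Prrt1, Prrt2, Syndig1, Syndig1l, Tmem91, Tmem233 and Trarg1), 4 had enough reads to be tested. None of the 4 was called in any comparison against vehicle by edgeR's quasi-likelihood test, none had an unadjusted p under 0.05, and DESeq2 set the adjusted p of all 4 to missing.

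Genes marking each line were read at a low level in libraries of the other line, and whether those reads came from the other line or from low expression was not tested. Genes specific to B16F10 cells (126 genes) stood in the 6694c2 vehicle libraries at a median of 0.596% ± 0.0262 of their B16F10 level and in the 6694c2 STING agonist libraries at 0.25% ± 0.0429 (SD, n = 3). Multiplied by the B16F10 vehicle level of Ifitm3, these shares come to 1.22 and 0.512 CPM, a difference of -0.709 CPM beside the measured -0.899 CPM, and the part of such reads in the measured difference was not tested. The same product was 0.623 CPM in the 6694c2 IFNβ libraries, where Ifitm3 stood at 468.1 CPM. In the 6694c2 IFNγ libraries it was 1.29 CPM, where Ifitm3 stood at 56.5 CPM. The vehicle product of 1.22 CPM stood beside a measured 4.34 CPM, the level from which the 6694c2 fold changes start. Its part in those fold changes was not tested. Genes specific to 6694c2 cells (204 genes) stood in B16F10 vehicle libraries at 0.206% ± 0.0327 and in B16F10 STING agonist libraries at 0.896% ± 0.116 (SD, n = 3). For Ifitm3 that product was 0.0389 CPM in B16F10 cells with STING agonist, where its level was 223 CPM above vehicle.

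The defining markers of each line were present. All 7 melanocyte markers were at 1 CPM or more in B16F10 cells, where their sum was 14700 to 18500 CPM against 18.5 to 129 CPM in 6694c2 cells, with Sox10 under 1 CPM there. All 7 ductal epithelial markers were at 1 CPM or more in 6694c2 cells, where their sum was 12800 to 15100 CPM against 14.7 to 137 CPM in B16F10 cells, with Krt7 and Epcam under 1 CPM there. Summed markers of myeloid cells stayed between 0.687 and 2.46 CPM and of fibroblasts between 0.332 and 3.71 CPM. Those of T cells came to at most 0.202 CPM in B16F10 cells and to 2.92 to 6.16 CPM in 6694c2 cells. In 6694c2 cells 2 of the 4 T cell markers had 0 reads and 1 had a mean of 1 CPM or more. Markers of the other line moved with treatment. Of the 7 ductal epithelial markers, 7 were called higher in B16F10 cells with IFNβ, 4 with IFNγ and 5 with STING agonist (median log2 fold changes 1.04, 0.71 and 2.37), none lower. DESeq2 called fewer with the interferons, at 4 with IFNβ, 1 with IFNγ and 5 with STING agonist. Of all genes, 12.7, 12 and 1.93% were called higher by edgeR in those comparisons. Of the 7 melanocyte markers, 6 were called lower in 6694c2 cells with IFNβ and 5 with STING agonist (medians -1.28 and -1.96), none higher. DESeq2 also called 6 and 5. Of all genes, 18.2 and 0.36% were called in either direction by edgeR there. With IFNγ no melanocyte marker was called by edgeR or DESeq2 and 0 had an unadjusted p under 0.05 (median -0.15). The part of these marker reads in the Ifitm3 changes was not tested. The 3 B cell markers reported here summed to between 3.87 and 14.6 CPM over both lines, and all 3 had a mean of 1 CPM or more in each line. Library depth ran from 15543131 to 32266795 reads on genes.

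Listed genes of interferon signalling were called in each of the 5 comparisons with vehicle in which Ifitm3 was, and a link to the Ifitm3 changes was not tested. Of 10 genes of interferon signalling, 6 were called higher and 1 lower with IFNβ in B16F10 cells and 6 and 0 in 6694c2 cells. With IFNγ, 7 and 1 were called in B16F10 and 5 and 1 in 6694c2 cells. With STING agonist 3 rose in B16F10 cells, and in 6694c2 cells none was called by edgeR or DESeq2 (1 had an unadjusted p under 0.05). Over all genes, 12.7% were called higher with IFNβ, 12% with IFNγ and 1.93% with STING agonist in B16F10 cells, and 10.4% with IFNβ and 7.89% with IFNγ in 6694c2 cells. Stat2, a subunit of the ISRE-binding complex, rose by 4.16, 3.79 and 1.04 (log2 fold change with IFNβ, IFNγ and STING agonist) in B16F10 cells and by 4.70 and 3.56 with IFNβ and IFNγ in 6694c2 cells. Irf9, the DNA-binding subunit of that complex, rose by 1.32, 0.87 and 0.39 in B16F10 and by 4.35 and 3.46 in 6694c2 cells in the same order. Irf1, a transcription factor induced by IFNγ in many cells, rose by 1.68, 5.69 and 0.44 in B16F10 and by 2.28 and 4.71 in 6694c2 cells. Like Ifitm3, Stat2 was higher with IFNβ than with IFNγ (log2 difference 0.38 in B16F10 and 1.14 in 6694c2 cells), as was Irf9 (0.45 and 0.88), all 4 called. Irf1 (-4.01 and -2.42) was called lower with IFNβ than with IFNγ in both lines. The receptor gene Ifnar2 rose over 2-fold with IFNγ in 6694c2 cells (1.08), and the kinase gene Jak2 with IFNγ in B16F10 cells (1.04).

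The list of 9 genes whose products act on IFITM proteins held the lipid-transfer partners Vapa and Vapb, the ubiquitin ligases Nedd4 and Nedd4l, the palmitoyltransferase Zdhhc20, the methyltransferase Setd7, the kinase Fyn, Vcp and Zmpste24. In B16F10 cells 5 were called lower with IFNβ, 2 with IFNγ and 1 with STING agonist, and none higher, where 24, 22.8 and 3.46% of all genes were called in either direction. In 6694c2 cells 3 were called lower with IFNβ and 1 higher with IFNγ, which was Nedd4l (log2 fold change 1.24, SE 0.0799, adjusted p = 1.18e-16, edgeR quasi-likelihood test, Benjamini-Hochberg), the 1 change over 2-fold. The shares of all genes called were 18.2% and 13.5% there. With STING agonist none was called in 6694c2 cells by edgeR or DESeq2, and 1 had an unadjusted p under 0.05. The median log2 fold change of the list lay between -0.17 and -0.02 in the 6 comparisons. Of the membrane proteins Cd81, Cd9, Cd63 and Cr2, listed as partners of IFITM proteins, 1 was called higher and 1 lower with IFNβ in B16F10 cells, neither over 2-fold. In the remaining 5 comparisons none was called by edgeR, with at most 1 at an unadjusted p under 0.05 and at most 1 called by DESeq2.

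Of 37 genes beside the members, with a start or end within 100 kb of one, 22 were tested. In B16F10 cells 2 were called higher and 1 lower with IFNβ, 1 and 1 with IFNγ, and 1 and 0 with STING agonist. In 6694c2 cells the counts were 2 and 0 with IFNβ and 1 and 1 with IFNγ, while with STING agonist none was called by edgeR or DESeq2 and 3 had an unadjusted p under 0.05. Over all genes, the shares called in either direction were 24, 22.8 and 3.46% with IFNβ, IFNγ and STING agonist in B16F10 cells and 18.2, 13.5 and 0.36% in 6694c2 cells. Pgghg, a glycosidase gene whose midpoint lies 65.7 kb from that of Ifitm3 on the Ifitm2 side, was the only one called over 2-fold, by 1.09 with IFNβ in B16F10 cells (SE 0.0956, adjusted p = 1.8e-24, edgeR quasi-likelihood test, Benjamini-Hochberg). It was higher by 0.58 with IFNβ in 6694c2 cells (SE 0.115, adjusted p = 0.000171, same test). Ifitm2 and Ifitm1, 54.8 and 41.7 kb from Ifitm3, lay between the pair. With IFNβ in B16F10 cells the log2 fold change of Ifitm2 was small (0.17). That of Ifitm1 was large but uncertain and not called (3.22, 95% interval 0.49 to 5.95).

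**Figure D4:**
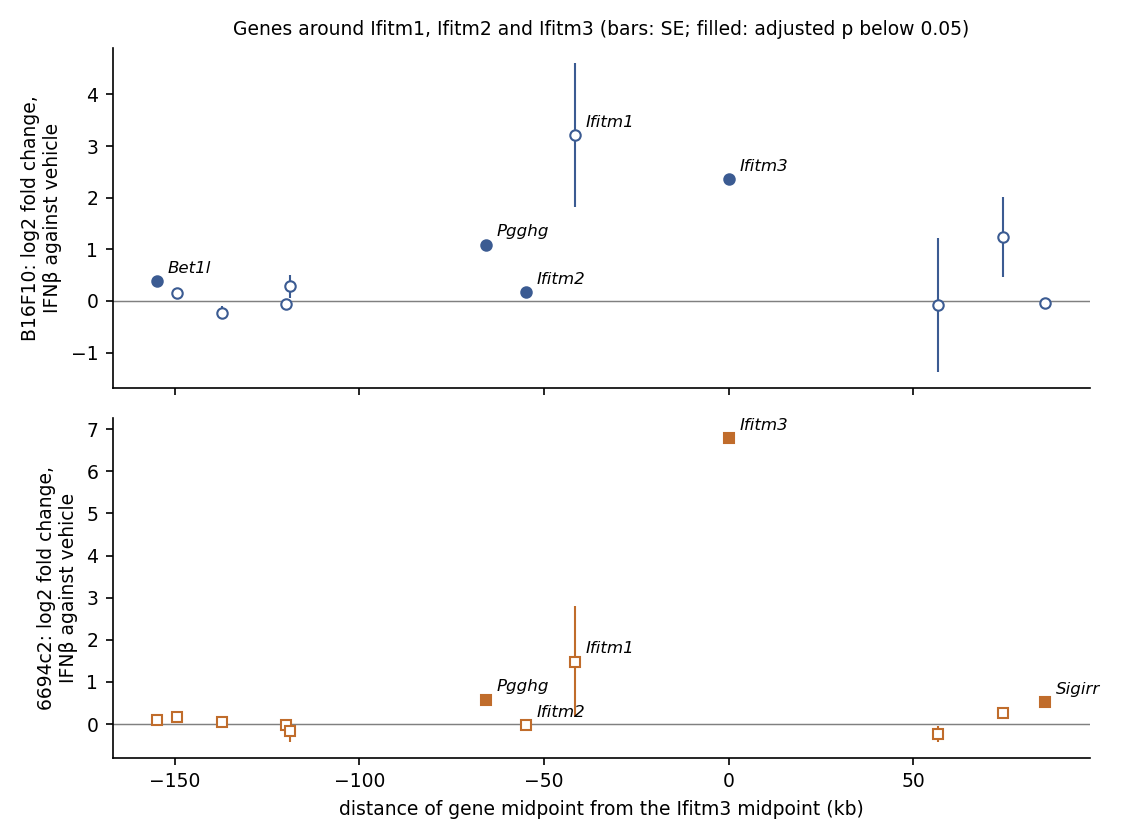
Log2 fold change with IFNβ against vehicle (y axis, bars show the SE) by distance of the gene midpoint from that of Ifitm3 in kb, for Ifitm1, Ifitm2, Ifitm3 and neighbours with at least 1000 reads, in B16F10 cells (top, circles) and 6694c2 cells (bottom, squares, on another scale). Filled symbols passed an adjusted p of 0.05, and Ifitm3 stands at 2.36 and 6.79 while Ifitm2 stands at 0.17 and -0.02.

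The genes most like each member were ranked by Pearson's r of log2 CPM over the 24 libraries after the mean of each line was removed, as a description of points that share treatments and libraries. For Ifitm3 they were Bst2, which encodes tetherin (r = 0.991), Ddx58, which encodes the RNA sensor RIG-I (0.991), and Isg15, a ubiquitin-like modifier (0.989). All 3 were high within each line, with r between 0.992 and 0.995. Bst2 went from 198.7 ± 7.13 CPM with vehicle to 1091 ± 103 with IFNβ in B16F10 cells and from 8.83 ± 1.12 to 837 ± 80.6 in 6694c2 cells (SD, n = 3), so it too was low in 6694c2 cells at the start. For Ifitm2 the nearest genes were Snrpf, a spliceosome subunit (0.854), the calcium-binding S100a11 (0.837) and the G protein subunit Gng5 (0.826). Their likeness came from 6694c2 cells (r between 0.929 and 0.944) more than from B16F10 cells (0.207 to 0.468). In 6694c2 cells the spread of S100a11 with IFNβ, 1060 ± 348 CPM (SD, n = 3), was wide as it was for Ifitm2. For Ifitm1 the values were 0.727 (Ndel1), 0.71 (Zfp955b) and 0.7 (Phf11c), and for Ifitm10 0.693 (Tbc1d9b), 0.684 (Arhgef10) and 0.674 (Elk4). Those 2 members had too few reads in most libraries for such values to be a finding.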

How the data were processed

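RNA of the cultured cells was sequenced paired-end. The authors trimmed adaptors (cutadapt 1.14), aligned reads (STAR 2.7.9a), counted reads on genes in Rsubread and deposited the raw counts with gene coordinates and exonic lengths. Genome build, strand setting and treatment of multi-mapping reads are not given in the sources used here, and coordinates of 91.44% of the 49056 identifiers found in GENCODE M21 (GRCm38) were the same there. Genes with at least 10 reads over the 24 libraries were kept. The 12 libraries of a line were fitted together, and all 24 for differences between lines, with 1 mean per group, in edgeR 4.0.16 (TMM, quasi-likelihood test, Benjamini-Hochberg over 21138 genes, threshold 0.05, limma 3.58.1, R 4.3.3). The study names DESeq2 (1.42.0), used as an alternative. The fits were also run on simulated counts with the same spread for every gene, and only well-read genes were changed. That was a check of the code and not of error rates in these data or for genes with few reads. Line-specific genes had at least 50 CPM in 1 line and under 2% of that in the other, with vehicle. Replicate pairs differed beyond counting noise. Genes named were the members, other CD225 genes, listed or neighbouring genes called over 2-fold against vehicle (neighbours within 100 kb), and 3 genes most like each member. Members and lists were chosen with earlier results of these data known. The 6 single-cell samples were not analysed here. An allele of 6694c2 and some genes of the lists are not reported here, and counts leave those genes out. Alternatives were other normalizations, filters, robust and blocked fits, DESeq2, fits over other library sets and each library left out.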

Additional observations from a re-analysis of the deposited data

Results flagged for a closer look

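The response of Ifitm3 differed between the 2 cell lines in 4 comparisons, each by the interaction test over all 24 libraries (edgeR quasi-likelihood, Benjamini-Hochberg adjusted). The log2 fold change was larger in 6694c2 than in B16F10 cells by 4.40 with IFNβ and by 1.78 with IFNγ, smaller with STING agonist (difference -1.40), and larger by 2.62 for IFNβ against IFNγ, a comparison added after the data were seen. Vehicle levels of 4.34 CPM in 6694c2 and 204.8 CPM in B16F10 cells stand beside these values, and the part of the starting level in them was not tested. No other member was called in these 4 comparisons. Groups of 3 libraries are too small to test a single library as an outlier.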

How the results depend on the processing

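Every Ifitm3 result kept its direction and its side of the threshold under each alternative run, in all 13 comparisons, as did the Ifitm10 call between the vehicle groups. For Ifitm3 with STING agonist in 6694c2 cells, that meant staying not called. Comparisons of Ifitm1 and Ifitm10 that were not called stayed so. Of 4 members, 1 rather than 2 was called for B16F10 IFNβ against vehicle with DESeq2 and with all 24 libraries in the fit, and 1 rather than 2 for B16F10 IFNβ against IFNγ with all 24 libraries in the fit, the lost call being that of Ifitm2 each time. With a library left out, these counts ranged from 1 to 2 in both comparisons, and from 1 to 2 for 6694c2 IFNβ against IFNγ. The cause was not tested.

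Scaling by total reads without TMM moved 8 mean levels by more than 1 SD, without changing the order of vehicle, STING agonist, IFNγ and IFNβ for Ifitm3 within B16F10 cells. The levels in CPM per kb became 184.6, 212.4 and 193.1 for Ifitm2 in B16F10 cells with vehicle, IFNβ and STING agonist. For Ifitm3 they became 322.2, 1194, 1689 and 682.3 in B16F10 cells with vehicle, IFNγ, IFNβ and STING agonist, and 4.77 in 6694c2 cells with STING agonist. The share of Ifitm3 kept its direction with raw reads and with each library left out.

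Replicate numbers are shared between groups in the labels, but same-numbered libraries did not deviate together (correlations from -0.14 to 0.127, 2 of 18 above 0.1). With the replicate block, Ifitm2 in B16F10 cells with IFNβ stayed called at 0.17 on the log2 scale (edgeR, adjusted p = 0.0128), and no member's call changed. Few reads limit Ifitm1 and Ifitm10, and DESeq2 and the stricter read filter gave no adjusted p for some of these comparisons.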
